A study of Mus musculus with 10 samples.

Results

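Growth hormone-releasing hormone (GHRH) is a hypothalamic peptide that acts on the somatotropes, the growth hormone (Gh) cells of the anterior pituitary. It binds a receptor coupled to cAMP, and through this route it raises growth hormone synthesis and somatotrope proliferation. The genes described here are 8 of the 44288 gene symbols in the count tables: Snhg11, Nell2, Kctd4, Flrt1, Slc26a11, Spink5, 3930402G23Rik and B230209E15Rik. They were chosen from earlier results of these same libraries, on their level in the library of mice with a GHRH transgene against WT. Their levels in that library against WT libraries are therefore given as a description, with no test. The questions were which cells held their transcripts and whether any WT library held them at a like level.

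Single-cell RNA was counted by Drop-seq, in which cells are caught with barcoded beads in droplets, in 8 pituitary libraries, and on the 10X Genomics platform in 2 more. The study's methods name CD1 as the strain of the mice bought, and state no strain for the mice with the transgene. The mt/hGRF genotype, a human GHRH transgene driven by a metallothionein promoter and so not limited to the hypothalamus, was present in 1 library of 8-week females. The WT Drop-seq libraries came from 8-week females (n = 2), 8-week males (n = 2), a 13-week virgin female group (n = 1) and 13-week lactating females (n = 2). On the 10X Genomics platform 1 library was of WT females and 1 of WT males, both at 8 weeks. With 1 mt/hGRF library, genotype and library cannot be told apart, and the number of mice pooled in it is not given consistently in the sources used here.

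Kept cells numbered 978 to 5256 per Drop-seq library, with 960289 to 4963159 UMIs (counted molecules) and medians of 534 to 784.5 UMIs per cell. The mt/hGRF library held 2797 kept cells and 2381280 UMIs, with a median of 620 UMIs. Levels below are UMIs of a gene per 10000 UMIs of all genes. Their 95% intervals are exact Poisson intervals for levels and exact binomial intervals for shares of cells, and cover counting error only. The mt/hGRF library stood apart in 2 measures of quality. Of its barcodes with at least 300 UMIs, 37.1% were over the mitochondrial limit, against 6.94% to 18.8% in the WT Drop-seq libraries, and mitochondrial genes took 3.73% of the UMIs of its kept cells, against 2.24% to 3.25%. The summed level of 5 proliferation markers was 3.09 in it and 0.940 to 2.35 in WT, and that of 4 T and NK cell markers was 0.836 against 0.0746 to 0.482. The 4 melanotrope markers (2.49 against 4.73 to 14.8), the 5 gonadotrope markers (0.832 against 0.963 to 4.24) and the 4 pituicyte markers (0.197 against 0.210 to 0.583) were below every WT Drop-seq library. All markers of these 5 lists had UMIs in it, and the part of these cells and of RNA quality in the levels below was not tested. No pair of Drop-seq libraries shared more than 1 kept barcode, and the 10X Genomics pair shared 6.

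The 8 genes have little in common by class. Nell2 (chr15:95075230-95528559, minus strand, GRCm38) encodes a secreted glycoprotein of neural tissue, and Flrt1 (chr19:7092001-7105729, minus strand) a membrane protein with leucine-rich repeats and fibronectin-like sequence. Kctd4 (chr14:75955009-75966206, plus strand) encodes a protein with a BTB domain, Slc26a11 (chr11:119355557-119381079, plus strand) an anion transporter, and Spink5 (chr18:43963235-44022501, plus strand) a serine protease inhibitor best known in skin. Snhg11 (chr2:158375638-158386145, plus strand) is a host gene of small nucleolar RNAs that GENCODE types as protein coding. 3930402G23Rik (chr8:10924427-10928696, minus strand) and B230209E15Rik (chr7:61529871-61615327, minus strand) are typed as long intergenic noncoding RNAs.

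Nell2 overlaps Tmem117, Kctd4 overlaps Gtf2f2 and Flrt1 overlaps Macrod1, each on the other strand. Slc26a11 starts 21 bases from Sgsh on the other strand. The Drop-seq counting was stated to use strand and exons.

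RefSeq promoters (GRCm38.p6, 250 bases before to 50 after the start) were matched for 3 of the 8 genes: Snhg11, 3930402G23Rik and B230209E15Rik. They are shown because the last 2 had a like pattern over cells, below, and Snhg11 a different one. Capitals were to mark the cAMP response element TGACGTCA, the shorter form TGACG and the Pou1f1 core TATNCAT on both strands, with each full element also holding the shorter form. None of these letters occurred in the 3 windows, so no base is in capitals. The RefSeq starts of 3930402G23Rik and Snhg11 lie inside the GENCODE spans given above. Their windows thus cover part of the annotated gene, and bases before the GENCODE start were searched only in part. Of the 32851 promoters in the table, 1.79% held TGACGTCA, 20.8% TGACG and 8.84% TATNCAT.
3930402G23Rik, chr8:10928408-10928707, minus strand: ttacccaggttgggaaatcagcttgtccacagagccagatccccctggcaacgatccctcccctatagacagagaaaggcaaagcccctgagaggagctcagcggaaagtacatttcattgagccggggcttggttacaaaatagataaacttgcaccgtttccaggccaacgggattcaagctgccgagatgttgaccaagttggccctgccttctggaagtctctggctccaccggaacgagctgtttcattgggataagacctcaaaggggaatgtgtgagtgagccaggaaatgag
B230209E15Rik, chr7:61615278-61615577, minus strand: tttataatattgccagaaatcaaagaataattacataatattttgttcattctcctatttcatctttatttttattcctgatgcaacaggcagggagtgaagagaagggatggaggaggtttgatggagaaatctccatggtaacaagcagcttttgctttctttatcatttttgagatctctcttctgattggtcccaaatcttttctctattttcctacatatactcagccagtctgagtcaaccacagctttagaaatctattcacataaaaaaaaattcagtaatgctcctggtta
Snhg11, chr2:158375463-158375762, plus strand: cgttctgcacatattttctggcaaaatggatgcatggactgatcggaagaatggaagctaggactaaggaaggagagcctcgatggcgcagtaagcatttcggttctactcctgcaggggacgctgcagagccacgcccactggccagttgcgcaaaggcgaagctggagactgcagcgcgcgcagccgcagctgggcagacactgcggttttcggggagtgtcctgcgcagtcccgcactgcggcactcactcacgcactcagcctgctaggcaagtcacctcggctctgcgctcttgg
The windows differed in base composition: G and C made up 52.3% of the 3930402G23Rik promoter, 34.0% of that of B230209E15Rik and 60.0% of that of Snhg11, where the median of all promoters was 52.7%.

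The levels of 5 of the 8 genes were above every WT Drop-seq library in the mt/hGRF library. Spink5, 3930402G23Rik and B230209E15Rik stood farthest from WT, Nell2 less far, and Slc26a11 only a little above 1 WT male library. Of the 9067 genes with at least 30 UMIs in the mt/hGRF library, 13.8% (1250) were above every WT Drop-seq library, and 0.849% (77) were at least 2 times the highest.

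Spink5 was at 0.857 in the mt/hGRF library (204 UMIs, 95% interval 0.743 to 0.983). In WT it was at 0.0521 and 0.0580 in 8-week females, 0.0304 and 0.0187 in 8-week males, 0.0725 in the virgin and 0.0833 and 0.109 in the lactating libraries. Every WT library was thus low, and the highest of them, lactating replicate 2, was 7.87 times lower. 3930402G23Rik was at 0.962 (229 UMIs, interval 0.841 to 1.095) in the mt/hGRF library. In WT it was at 0.0208 and 0.0116 in 8-week females, 0.0507 and 0.0420 in 8-week males, 0.0326 in the virgin and 0.0278 and 0.131 in the lactating libraries. Lactating replicate 2 was again the highest WT library, at a ratio of 7.34, and the other 6 stayed at or below 0.0507.

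B230209E15Rik, the most abundant of these 3, was at 1.56 in the mt/hGRF library (372 UMIs, interval 1.41 to 1.73). In WT it was at 0.0416 and 0.0754 in 8-week females, 0.132 and 0.0747 in 8-week males, 0.109 in the virgin and 0.119 and 0.322 in the lactating libraries. Lactating replicate 2 was the highest WT library for all 3 genes, at a ratio of 4.85 here. Nell2 was at 0.672 (160 UMIs, interval 0.572 to 0.785) against 0.135 and 0.0928 in 8-week females, 0.193 and 0.149 in 8-week males, 0.170 in the virgin and 0.119 and 0.131 in the lactating libraries. The WT values of Nell2 lay within 0.0928 to 0.193, and the mt/hGRF level was 3.49 times the highest.

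Slc26a11 was at 0.605 in the mt/hGRF library (144 UMIs, interval 0.510 to 0.712). It was at 0.0416 and 0.0812 in WT 8-week females, 0.112 and 0.364 in 8-week males, 0.101 in the virgin and 0.139 and 0.0645 in the lactating libraries. WT male replicate 2 shared much of this signal, and the ratio to it was 1.66. Against the mean of the 8-week WT females, 0.0614 ± 0.0280 (SD, n = 2), the ratio was 9.84.

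The other 3 genes did not stand above WT. Snhg11 was at 11.9 in the mt/hGRF library (2835 UMIs), above 3.54 and 3.15 in 8-week WT females and 4.40 and 7.84 in 8-week WT males, and below 21.7 in the virgin and 28.1 and 24.4 in the lactating libraries. It was thus higher than in WT of the same age and lower than in every 13-week library. Kctd4 was at 0.0714 (17 UMIs, interval 0.0416 to 0.114) in the mt/hGRF library, within the 0.0608 and 0.117 of the 8-week WT males and below the 0.292 and 0.290 of the 8-week WT females. Flrt1 was at 0.185 (44 UMIs, interval 0.134 to 0.248), where WT was at 0.771 and 0.522 in 8-week females, 0.162 and 0.537 in 8-week males, 0.420 in the virgin and 0.183 and 0.256 in the lactating libraries. The description as raised does not hold for Kctd4 and Flrt1 in these cells, which were lower than in both 8-week WT female libraries. Among the members, the smallest ratio to the highest WT level above 1 was that of Slc26a11 (1.66), and the largest below 1 was that of Snhg11 (0.423).

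**Figure D1:**
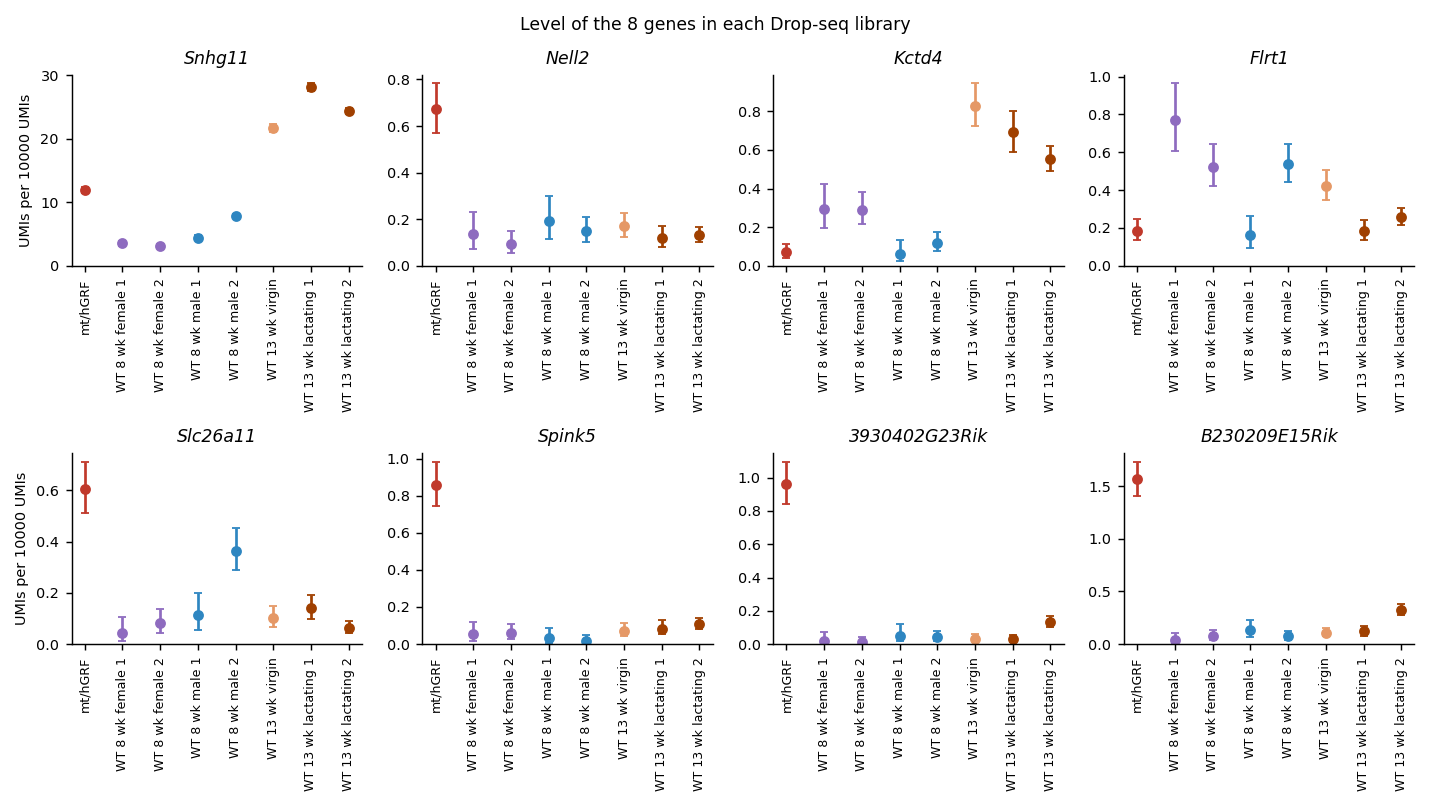
Level of each of the 8 genes (UMIs per 10000 UMIs, linear axis from 0) in the kept cells of each Drop-seq library; points are libraries and bars 95% Poisson intervals of the count. The mt/hGRF library is the highest for Nell2, Slc26a11, Spink5, 3930402G23Rik and B230209E15Rik, lies between the 8-week and 13-week WT libraries for Snhg11, and is among the lowest for Kctd4 and Flrt1.

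On the 10X Genomics platform, where only WT was measured, the same genes were low. Spink5 was at 0 UMIs in the female library, which allows a level of up to 0.00765 (3 UMIs) or, by the exact Poisson bound, 0.00941. It was at 0.00394 in the male library. 3930402G23Rik was at 0.0791 in the female and 0.00787 in the male library, Nell2 at 0.0842 and 0.0590, and Slc26a11 at 0.0740 and 0.0453. B230209E15Rik has no row in those tables and was not analysed there. Snhg11 was higher in the male (1.95) than in the female library (0.329), and Kctd4 higher in the female (0.232) than in the male (0.0295). Flrt1 was at 0.0536 in the female and 0.0394 in the male library. For Snhg11, Kctd4 and Flrt1 the order of the sexes was that of the Drop-seq means. For Nell2, Slc26a11, 3930402G23Rik and Spink5 it was the reverse, with Spink5 at 0 and 2 UMIs by 10X Genomics.

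The 10 other genes with the largest ratio of the mt/hGRF level to the highest WT level were Ghrh, Jchain, Igha, Crisp1, Mgarp, Defb18, Igkc, Itga8, 4833423E24Rik and S100a9. Ghrh, which encodes the mouse counterpart of the transgene product, held 227 UMIs in the mt/hGRF library and at most 1 in any WT Drop-seq library, and ranked first. Whether transgene reads were counted under Ghrh was not tested. Jchain, Igha and Igkc encode immunoglobulin parts made by plasma cells, and S100a9 a calcium-binding protein of neutrophils. Igkc was at 3.48 in the mt/hGRF library and 0.0119 to 0.603 in WT, and S100a9 at 3.52 and 0 to 0.750. In the same ranking of 9067 genes, Spink5 was 6, 3930402G23Rik 7, B230209E15Rik 12, Nell2 30 and Slc26a11 130, while Snhg11 was 8359 and Flrt1 8947. Kctd4 was under the minimum of 30 UMIs and had no rank.

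**Figure D2:**
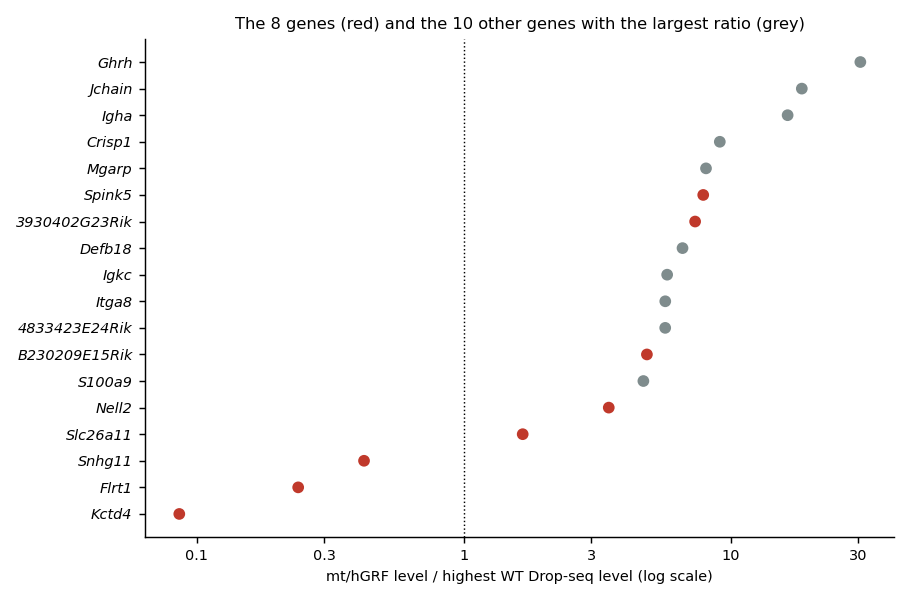
Ratio of the level in the mt/hGRF library to the highest level in the 7 WT Drop-seq libraries (log axis) for the 8 genes (red) and for the 10 other genes with the largest ratio (grey), with 3 UMIs as the floor of each level; the dotted line is a ratio of 1. Spink5 (7.87) and 3930402G23Rik (7.34) lie among the top genes, and Snhg11 (0.423), Flrt1 (0.240) and Kctd4 (0.0861) lie below the line.

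To find which cells held these transcripts, cells were gated by marker genes other than Gh, Prl and Pomc. The thyrotrope and gonadotrope markers included the hormone genes Tshb and Fshb. The somatotrope and lactotrope markers held genes that the study listed as cluster markers from these same samples. All gate markers were left out of the test between these gates. In the mt/hGRF library 211 cells fell in the somatotrope gate and 182 in the lactotrope gate (the prolactin cells), and 1848 (66.1%) in none. In this library Gh was at 1841 per 10000 in the somatotrope gate and 381 in the lactotrope gate, and Prl at 78.4 and 1190. Gh was higher in the somatotrope gate in all 10 libraries and Prl higher in the lactotrope gate in 9, the exception being the 10X Genomics female library (Prl at 687 and 367). The lactotrope gates of 8-week female replicate 1 (979 and 878) and male replicate 1 (1270 and 412) held more Gh than Prl, and the cause was not tested. The thyrotrope gate (39 cells) held more Gh, 2345, than the somatotrope gate, so its cells go against their label in part and are named here only by the gate.

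Spink5, 3930402G23Rik and B230209E15Rik were at higher levels in the somatotrope and proliferating gates than in the lactotrope gate, although most of their UMIs lay in cells of no gate. Those cells held 61.8%, 62.4% and 62.4% of the UMIs of the 3 genes, at levels of 1.02, 1.16 and 1.88, and held Gh at 1295 and Prl at 389 per 10000. They also held 1235917 of the 2381280 UMIs of all genes in this library. Spink5 was at 1.42 (44 UMIs, interval 1.03 to 1.91) in somatotrope-gated cells and 0.111 (2 UMIs, 0.0134 to 0.401) in lactotrope-gated cells. 3930402G23Rik was at 1.62 (50 UMIs, 1.20 to 2.13) and 0.111 (2 UMIs), and B230209E15Rik at 2.72 (84 UMIs, 2.17 to 3.36) and 0.388 (7 UMIs, 0.156 to 0.800). In the 56 cells of the proliferating gate, whose markers are cell cycle genes, Spink5 was at 2.06 (16 UMIs), 3930402G23Rik at 2.19 (17 UMIs) and B230209E15Rik at 2.96 (23 UMIs). Those cells held Gh at 918 per 10000 and Prl at 177. 3930402G23Rik and B230209E15Rik were also at 1.66 (9 UMIs) and 2.03 (11 UMIs) in the thyrotrope gate.

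Free RNA can give UMIs in any cell, so macrophage-gated cells (n = 144, median 776.5 UMIs) were read as the background. B230209E15Rik had 0 UMIs in these cells, 3930402G23Rik 1 (a level of 0.0706) and Spink5 7 (0.494, interval 0.199 to 1.018). Red blood cells (n = 82, median 1331.5 UMIs), a further background, held 2 UMIs of each of the 3 genes (0.1755). The lactotrope-gated levels of Spink5 and 3930402G23Rik (0.111) lay below that, and that of Spink5 also below its macrophage-gated level. The share of cells with a UMI of B230209E15Rik was 23.2% (interval 17.7% to 29.5%) in the somatotrope gate (median 913 UMIs), 3.85% in the lactotrope gate (median 680 UMIs) and 0 of 144 macrophage-gated cells, which allows up to 2.08% (3 cells of 144) or, by the exact binomial bound, 2.53%. For 3930402G23Rik the shares were 14.7%, 1.10% and 0.694%, and for Spink5 12.8%, 1.10% and 2.08%. After thinning of every cell to 300 UMIs the somatotrope-gated and lactotrope-gated shares were 9.48% and 1.65% for B230209E15Rik, 7.11% and 0 for 3930402G23Rik and 3.79% and 0 for Spink5. The order of the gates was the same at this fixed depth for all 3 genes. Of the 7 members with at least 10 UMIs in the gates together, 5 were at a higher level in the somatotrope gate, as were 52.4% of 6830 genes.

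The gates differed less for Nell2 and Slc26a11. Nell2 was at 0.873 (27 UMIs, 0.575 to 1.27) in somatotrope-gated cells, 0.444 (8 UMIs, 0.192 to 0.875) in lactotrope-gated cells and 1.29 (10 UMIs) in the proliferating gate, and its intervals overlapped. Slc26a11 was at 0.776 (24 UMIs, 0.497 to 1.16) and 0.222 (4 UMIs, 0.0605 to 0.568) in the somatotrope and lactotrope gates, also with overlapping intervals. The share of cells with a UMI of Slc26a11 was 11.4% (interval 7.42% to 16.4%) and 2.20% (0.602% to 5.53%) in these gates, without overlap, and that of Nell2 was 8.06% and 4.40%. After thinning, the somatotrope-gated and lactotrope-gated shares were 1.90% and 1.65% for Nell2 and 1.42% and 0.549% for Slc26a11. In macrophage-gated cells Nell2 had 2 UMIs and Slc26a11 4.

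Snhg11 had the opposite order in level. In the mt/hGRF library it was at 6.05 (187 UMIs) in somatotrope-gated cells and 27.7 (499 UMIs) in lactotrope-gated cells, and it was at 38.7 in melanotrope-gated and 52.6 in gonadotrope-gated cells (26 cells), whose markers were low in this library. Macrophage-gated cells were at 0.776. The share of cells with a UMI of Snhg11 differed less than its level. It was 16.1% (interval 11.4% to 21.8%) in the somatotrope gate and 21.4% (15.7% to 28.1%) in the lactotrope gate, with overlap. A single cell of this library held up to 70 UMIs of Snhg11. For Snhg11, lactotrope-gated cells of the mt/hGRF library were above those of every WT Drop-seq library (0.708 to 22.9). The somatotrope-gated cells lay within the WT range (0.672 to 19.2). The share of all genes above every WT lactotrope gate was not counted. Since the gene was chosen on its level in this library, nothing is read from that order. Flrt1 was at 0.291 and 0.333 in the somatotrope and lactotrope gates. Kctd4 had 1 UMI in 211 somatotrope-gated cells and 0 in 182 lactotrope-gated cells. The latter allows a level of up to 0.166 (3 UMIs) or, by the exact Poisson bound, 0.205.

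Within the somatotrope gate, the mt/hGRF library was above all 7 WT Drop-seq libraries for the same 5 genes, where 18.5% of the 5119 genes with at least 10 UMIs in that gate of the mt/hGRF library were, gate markers left out. The WT levels ran from 0 to 0.224 for Spink5, 0 to 0.602 for 3930402G23Rik, 0 to 0.412 for B230209E15Rik, 0 to 0.403 for Nell2 and 0.0480 to 0.568 for Slc26a11, with the highest 3930402G23Rik and B230209E15Rik in lactating replicate 2. In that library 56 of the 160 B230209E15Rik UMIs came from melanotrope-gated cells (0.913), the cells of the intermediate lobe, where the mt/hGRF library was at 0.669 (7 UMIs). The WT library with the most of this transcript therefore held it at a higher level in melanotrope-gated than in somatotrope-gated cells, unlike the mt/hGRF library. Levels above all 7 WT libraries were not limited to the somatotrope gate. In the proliferating gate and in cells of no gate they held for all 5 genes. In the lactotrope gate they held for all but Slc26a11 and in the macrophage gate for all but B230209E15Rik, on 8 UMIs or fewer a gene. In the macrophage gate 3930402G23Rik was above WT on 1 UMI, against 0 UMIs in WT. The shares of all genes in these other gates were not counted, so nothing is read from these counts.

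**Figure D3:**
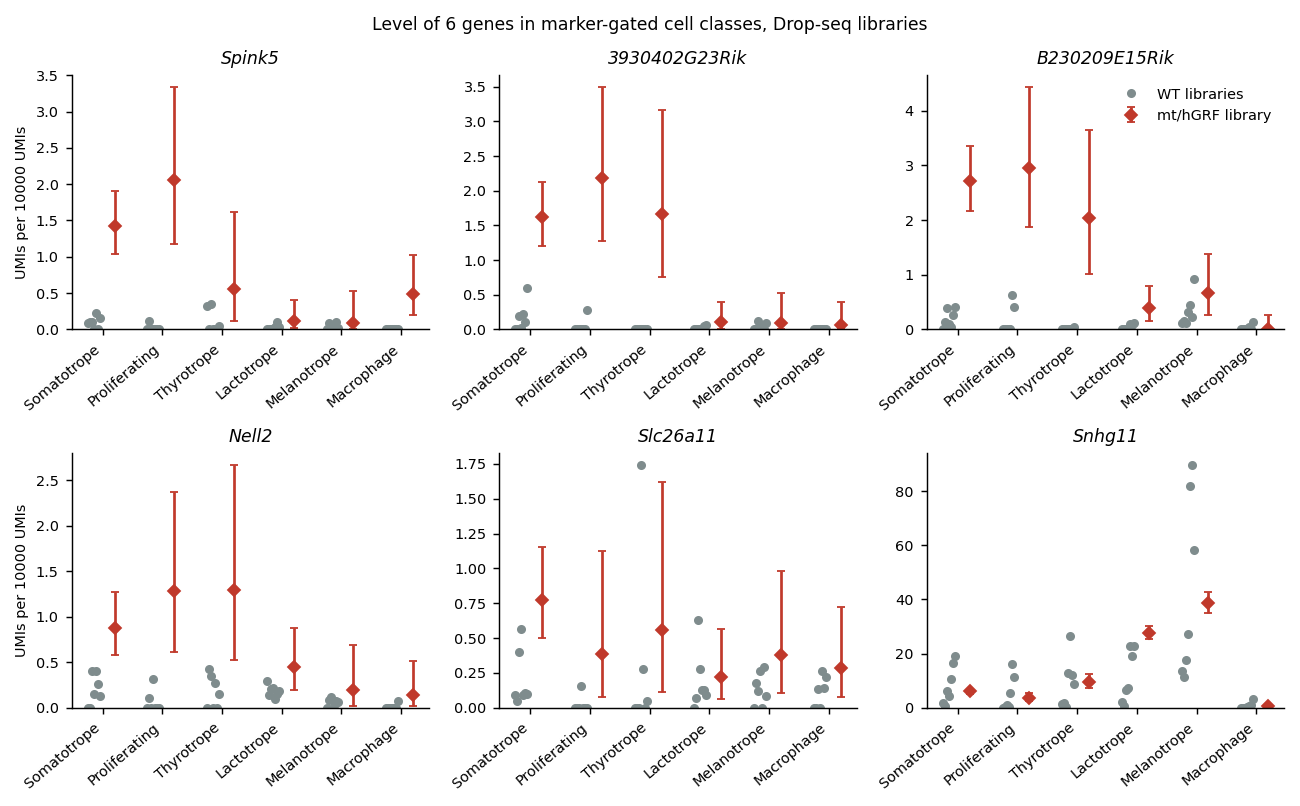
Level (UMIs per 10000 UMIs, linear axis from 0) of 6 genes in 6 marker-gated cell classes; grey points are the WT Drop-seq libraries and red diamonds the mt/hGRF library with its 95% Poisson interval. Spink5, 3930402G23Rik and B230209E15Rik stand above WT in the somatotrope and proliferating gates of the mt/hGRF library, and Snhg11 of the mt/hGRF library is higher in the lactotrope and melanotrope gates than in the somatotrope gate.

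Cells that held more than 1 of the 5 raised genes were rare in WT. At least 1 of the 5 was seen in 637 of 2797 cells (22.8%) of the mt/hGRF library and in 2.15% to 6.18% of cells of the WT Drop-seq libraries. At least 2 were seen in 142 cells (5.08%) of the mt/hGRF library and in 2 to 8 cells (0.0747% to 0.205%) of each WT library. At least 3 were seen in 28 cells of the mt/hGRF library and in no WT cell. These counts follow in part from the choice of the genes and are a description. Cells of the mt/hGRF library with 1 or more of the 5 held a median of 743 UMIs, against 581.5 in those with none, and a median Gh level of 691 against 489 per 10000. Both medians were also higher in the cells with 1 or more of the 5 in all 7 WT Drop-seq libraries, with Gh at 809 against 364 in the virgin and 142 against 52.4 in 8-week female replicate 2.

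**Figure D4:**
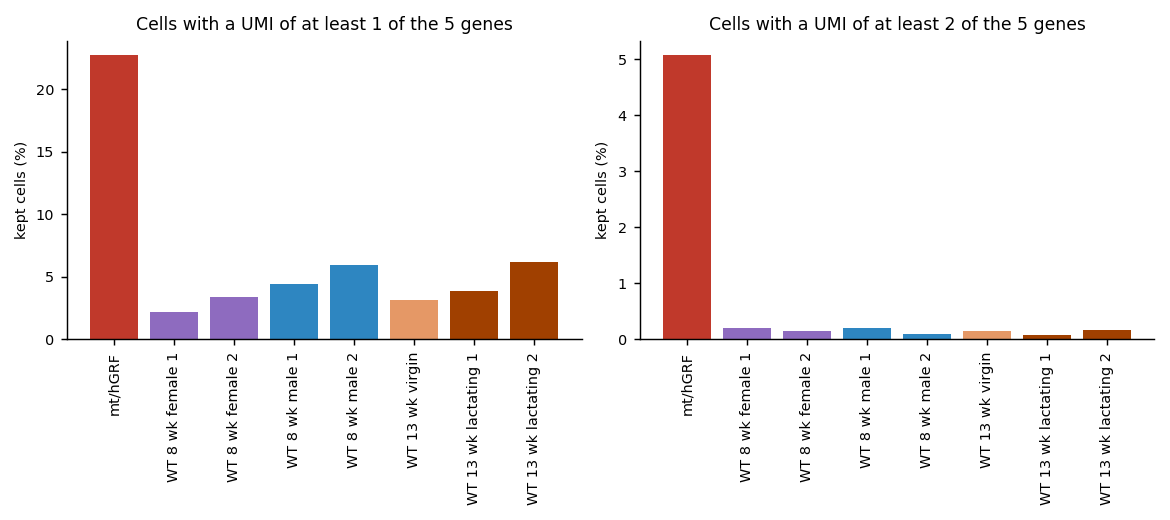
Share of kept cells (%) with a UMI of at least 1 (left) and at least 2 (right) of Nell2, Slc26a11, Spink5, 3930402G23Rik and B230209E15Rik in each Drop-seq library; bars start at 0, and the 2 panels differ in scale. The mt/hGRF bars are at 22.8% and 5.08%, and no WT bar passes 6.18% and 0.205%.

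WT libraries were compared with edgeR's quasi-likelihood test on summed counts of each library. Their levels entered the choice of the genes as the reference, so the differences that involve 8-week WT libraries are given as a description. By the study's methods the 8-week libraries were each a pool of mice and the lactating libraries came from separate experiments, so the p-values measure the spread between pools or between such experiments. Between 8-week females and males all 8 genes were tested and none was called at an adjusted p of 0.05, where 0.0163% of 18359 genes (3) were called. Kctd4 was at 0.291 ± 0.00106 (SD, n = 2) in females and 0.0888 ± 0.0395 (n = 2) in males, a log2 difference of 1.71 (SE 0.379). Slc26a11 was at 0.0614 ± 0.0280 (n = 2) in females and 0.238 ± 0.179 (n = 2) in males, a log2 difference of -1.87 (SE 0.594), and without male replicate 2 it was -0.90. The virgin group was 1 library, assumed to vary like the other groups. Between lactating and virgin libraries edgeR called 0.0% of 18359 genes and none of the 8, with 307 genes at an unadjusted p under 0.05 and 5 called by DESeq2. The log2 differences of the 8 genes ran from -0.64 for Flrt1 to 1.68 for 3930402G23Rik, which was -0.08 without lactating replicate 2.

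Snhg11 and Kctd4 were at higher levels in 13-week than in 8-week WT females, a comparison chosen after the values were seen. Since it rests on the same 8-week WT libraries that the genes were chosen against, it is given as a description, with no p. Snhg11 was at 21.7 in the virgin and 28.1 and 24.4 in the lactating libraries, a mean of 24.7 ± 3.25 (SD, n = 3) against 3.34 ± 0.280 (n = 2) at 8 weeks and a log2 difference of 3.21 (SE 0.376). Kctd4 was at 0.830 in the virgin and 0.690 and 0.552 in the lactating libraries, a mean of 0.691 ± 0.139 (n = 3) against 0.291 ± 0.00106 (n = 2) and a log2 difference of 1.69 (SE 0.322). The log2 differences were 3.01 to 3.42 for Snhg11 and 1.55 to 1.80 for Kctd4 in all 7 alternatives. The age groups did not overlap for either gene, the virgin library included, but the share of all genes without overlap was not counted. In this comparison 2.75% of 18359 genes were called, with 0.212% (39) higher and the other 465 lower, and nothing is read from the members against that share. Age and library preparation cannot be told apart here.

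Among the WT Drop-seq libraries, Kctd4 was lower in somatotrope-gated than in lactotrope-gated cells of the same library. Kctd4 was at 0.643 and 0.580 in the somatotrope and lactotrope gates of 8-week female replicate 1, 0.240 and 0.708 in female replicate 2, 0.179 and 1.645 in the virgin, and 0.468 and 1.55 and 0.412 and 0.804 in the lactating libraries. The lactotrope gate was thus higher in 4 of these 5 female libraries, and the males held 0 and 0.0988 in the somatotrope gate and 0 and 0.125 in the lactotrope gate. The log2 difference was -1.48 (SE 0.298, edgeR adjusted p of 0.000774) with library as a block, and 2.3% of the 7249 genes tested were lower and called. Without the block the adjusted p was 0.111.

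Only 6 of the 8 genes passed the filter on low counts in this comparison, and 1 of the 6 was called, where 5.13% of 7249 genes were. Snhg11 had a log2 difference of -0.47 (SE 0.159, edgeR adjusted p of 0.0848), and was called without male replicate 1 (0.0125). B230209E15Rik had a log2 difference of 1.78 (SE 0.702, edgeR adjusted p of 0.173), with 30 UMIs in the somatotrope gates and 13 in the lactotrope gates of the 7 libraries. Nell2, Slc26a11 and Flrt1 had log2 differences of -0.06, 0.19 and 0.62, none called. 3930402G23Rik and Spink5 did not pass, with 29 and 14 UMIs in the somatotrope gates and 6 and 7 in the lactotrope gates. Of the 29 UMIs of 3930402G23Rik, 19 came from lactating replicate 2, and both 8-week female libraries held 0 in either gate. With no filter 3930402G23Rik had a log2 difference of 2.65 (SE 0.712, edgeR adjusted p of 0.0212, against 0.41 with DESeq2) and Spink5 1.44 (SE 0.828, adjusted p of 0.965). In the 10X Genomics female library 3930402G23Rik had 27 UMIs in 610 somatotrope-gated cells (0.235, interval 0.155 to 0.342) and 1 UMI in 531 lactotrope-gated cells, and in the male library 3 and 0 UMIs, where the female library is the one with more Prl in its somatotrope gate. The Drop-seq signal of this transcript in WT gates thus came mainly from 1 library.

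**Figure D5:**
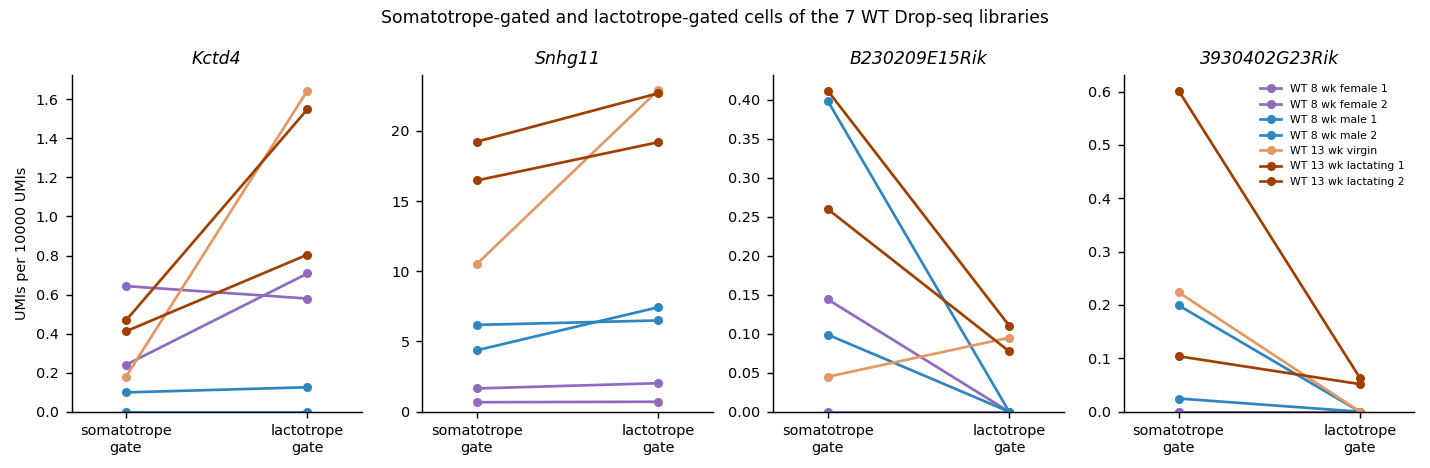
Level (UMIs per 10000 UMIs, linear axis from 0) of Kctd4, Snhg11, B230209E15Rik and 3930402G23Rik in the somatotrope-gated and lactotrope-gated cells of each WT Drop-seq library, with a line joining the gates of a library. Kctd4 rises towards the lactotrope gate in 4 of the 5 female libraries, and Snhg11 differs more between libraries than between gates.

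Few of the genes beside the 8 on the chromosome had enough UMIs to be read. Of the 32 flanking genes with a row in the tables (2 on each side), 10 had at least 30 UMIs in the mt/hGRF library, and 1 of these, Fermt3 beside Flrt1, was above every WT Drop-seq library, at 0.260 against 0.0766 to 0.239, beside 13.8% of all such genes. Next to the raised genes, Sgsh beside Slc26a11 was at 0.0840 (WT 0.0397 to 0.101) and Rnf213 at 0.189 (0.0584 to 0.462), and 4833411C07Rik near 3930402G23Rik was at 0.134 (0.0507 to 0.135). Spink14 and Spink6 beside Spink5 had 1 and 0 UMIs in the mt/hGRF library.

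The pathway that GHRH acts through was compared between the mt/hGRF library and the 8-week WT females. The mt/hGRF arm was 1 library, assumed to vary like the other groups, and edgeR called 0.0% of 18359 genes (1933 at an unadjusted p under 0.05, and 182 called by DESeq2), so the lack of a call says nothing of a single listed gene. Of the 22 genes of GHRH receptor and cAMP signalling, all 22 were tested, with a median log2 difference of 0.28 beside -0.08 for all genes. The 18 cAMP-induced genes had a median of 0.57, but their summed level, 29.4, lay between those of the 8-week WT female libraries (19.1 and 43.1), as did that of the cell handling (stress and immediate early) genes (12.8, against 7.72 and 17.7). The medians were 0.33 for the 12 tested genes of the growth hormone axis and 0.94 for the 14 tested small nucleolar RNA host genes other than Snhg11. The same host genes had a median of 1.05 between 13-week and 8-week WT females, a comparison with the same 8-week libraries, and 4 of the 14 (Snhg3, Snhg5, Snhg8 and Snhg9) were called higher there, beside 0.212% of all genes, and edgeR called 0 genes when lactating replicate 1 or 2 was left out (2604 and 2330 at an unadjusted p under 0.05). Against all 7 WT Drop-seq libraries, 4 of the 19 signalling genes with at least 30 UMIs (Prkar1a, Crem, Pde4b and Pde8b), 3 of 16 cAMP-induced genes (Crem, Rgs2 and Vgf) and 4 of 14 host genes (Snhg1, Snhg4, Snhg6 and Snhg15) were above every WT library, beside the 13.8% of all genes. So were 1 of 8 genes of the growth hormone axis (Neurod4) and 1 of 9 nuclear long noncoding RNAs (Neat1). Of the genes of these lists with at least 30 UMIs, 1 was below every WT library, the cAMP-induced Scg2, which encodes a granin of secretory granules, at 8.45 against 10.1 to 16.6. These names were taken after their values were seen, and the share of all genes below every WT library is not given here. Pde4b, a phosphodiesterase that breaks down cAMP, was at 0.508 against 0.0866 to 0.159 in WT. Of relatives of the 8 genes, 1 of 6 with at least 30 UMIs was above every WT library, the sulfate transporter Slc26a2 at 0.458 against 0.254 to 0.341. Ghrhr, the GHRH receptor, was at 1.23 in the mt/hGRF library and 0.853 to 1.765 in WT, and Gh at 1100 and 391 to 1567, both within the WT range. Of the 7 cell handling genes with at least 30 UMIs, 0 were above every WT library.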

How the data were processed

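The files hold whole-number UMI counts per gene symbol and barcode that the authors deposited without any scaling, and name lists of genes and barcodes. Per the authors, reads of the Drop-seq libraries were mapped to mm10 with STAR (2.5.2a in the submitters' processing notes) and assigned by strand to Gencode vM13 exons, with UMIs within 1 mismatch merged. The 10X Genomics counts were made with Cell Ranger, whose version is not given in the sources used here.

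The cell limits of the study were used: a mitochondrial share below 0.1 on both platforms, a minimum of 300 UMIs with 100 to 4000 genes by Drop-seq, and between 200 and 3000 genes by 10X Genomics. Doublets were not removed. A cell was gated to the class with the highest sum of marker UMIs, needing 2 UMIs for hormone cell classes and 3 UMIs from 2 genes for the others, and ties were not gated. Red blood cells were those with a share of hemoglobin UMIs above 0.1. Neuron markers were not used, since hormone cells also express them. The gating limits and the minimum of 10 UMIs for shares of genes within gates were set after the data were seen.

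Summed counts were tested two-sided with edgeR 4.0.16 (quasi-likelihood test, TMM scaling, a filter on low counts, Benjamini-Hochberg adjustment) in 1 fit of the 8 Drop-seq libraries, and in the somatotrope and lactotrope gates of the WT libraries with at least 20 cells a gate and library as a block. DESeq2 1.42.0, no filter, hormone genes left out and each library left out were alternatives. The fits were also run on counts simulated with known changes and the same spread for every gene. That run does not show how the fits behave on these data. Named genes were the 8, the 10 others with the largest ratio of the mt/hGRF level to the highest WT level (3 UMIs as the floor, at least 30 UMIs), 2 neighbours on each side, and listed genes past the threshold. The members and gene lists were chosen with earlier results of these data known. Coordinates are from GENCODE vM21 (GRCm38), and promoters from RefSeq.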

Additional observations from a re-analysis of the deposited data

Results flagged for a closer look

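Barcodes over the mitochondrial limit entered no comparison above, and 3 genes stood out in those of the mt/hGRF library (1769 barcodes within the UMI and gene limits), with intervals above those of every WT Drop-seq library. Of the 6554 genes with at least 30 UMIs in those barcodes 1.56% (102) had such intervals, and the 3 genes were chosen for a high level in this library. B230209E15Rik was at 2.20 UMIs per 10000 (367 UMIs, interval 1.98 to 2.44), against 0.0478 to 0.329 in such barcodes of the WT libraries. 3930402G23Rik was at 1.15 (191 UMIs, interval 0.990 to 1.32), against 0 to 0.0822. Spink5 was at 1.03 (171 UMIs, interval 0.878 to 1.19), against 0 to 0.217. In the kept cells of the same library the levels were 1.56, 0.962 and 0.857, with intervals that overlapped those of these barcodes for 3930402G23Rik and Spink5.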

How the results depend on the processing

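The count of 5 genes above every WT Drop-seq library was 5 under no mitochondrial limit, at least 500 UMIs per cell, hormone genes out of the UMI total, all barcodes, and without each WT library in turn (5 to 5), the last chosen after seeing the data. Leaving out a WT library can only keep or raise this count, so that setting tests nothing. The choice of the genes also fixes this direction in part. In the mt/hGRF library 6 of the 8 genes were higher in the somatotrope than in the lactotrope gate, and 6 or 7 under the 6 alternatives, among them a looser gate added after seeing the data. Kctd4 is among the 6 with 1 UMI against 0, and 52.4% of the 6830 genes with at least 10 UMIs in these gates had this order.

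Counts of called genes depended on the tool and on single libraries. Between the mt/hGRF library and 8-week WT females edgeR called 0 genes, DESeq2 182, the fit with no filter 861, and the fits without 1 female library 2 to 623 (623 without replicate 1). Between the sexes the 3 calls became 12 with DESeq2, 37 with no filter and 1 to 91 without 1 library (91 without female replicate 2). Between lactating and virgin libraries the 0 calls became 5 with DESeq2 and 20 with no filter, and stayed at 0 to 0 without a lactating library. Between 13-week and 8-week WT females the 504 calls became 807 with DESeq2, 2040 with no filter and 0 to 1162 without 1 library, with 0 when either lactating library was left out. Between the gates the 372 calls became 106 with no library block, and 251 to 427 without 1 library. With DESeq2 the median log2 difference of all genes was -0.25 between 13-week and 8-week females, against -0.07 with edgeR. The causes were not tested. Of the 59 other values under alternatives, 52 kept their side of the threshold, 6 lost it and 1 gained it, and none changed sign.

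A fit with the code shared by the titles of the 8-week female and male libraries as a replicate block called 0 genes between the sexes, against 3. The labels do not say that the code pairs the libraries, and with 2 pairs the correlation of their deviations (0.225) does not settle it.

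The gated values of the mt/hGRF library rest on few counts, with 17 UMIs of Kctd4 and 44 of Flrt1 in all its cells, and 47.7% (Flrt1) to 76.5% (Kctd4) of the UMIs of each of the 8 genes lay in cells of no gate. Those cells held 1235917 of the 2381280 UMIs of all genes in that library.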
